A study of Mus musculus with 6 samples.

Results

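Promoters of long noncoding RNA (lncRNA) genes were examined in NIH3T3 cells, an immortalised mouse fibroblast line. They were taken as the accessible regions annotated to a gene of biotype lncRNA, with a centre within 1000 bp of the transcription start site and a mean of at least 10 normalised reads over the 6 libraries. Of the 52957 regions in the table, 1024 (1.93%) met this rule, and they belonged to 987 genes. Only 100 of these regions, of 96 genes, carried a gene symbol, and the other genes had an Ensembl identifier alone. Another 14 lncRNA regions within 1000 bp had a mean under 10 (4 to 9.83) and were left out. The assay was ATAC-seq: Tn5 transposase cuts open DNA and tags it for sequencing, so read number reflects how open a stretch of chromatin is. The 3 active libraries came from stable, genotyped NIH3T3 lines in which Actg1, the gamma-actin gene, carried the self-cleaving T3H48 hammerhead ribozyme in its active form (T3H48-aHHR) in intron 3. The 3 inactive libraries came from lines with the inactive form (T3H48-iHHR) at the same place, so every group carried an insertion in Actg1. The ribozyme was placed there to cut the Actg1 pre-mRNA, but cleavage was not measured in these data, and regions annotated to Actg1 are not analysed here. Nothing in the labels tells whether a group's libraries were separate cultures or independently derived lines. Each p-value thus reflects library-to-library spread alone, possibly technical, and ribozyme activity and line identity cannot be told apart.

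Long noncoding RNAs are transcripts that are processed much like messenger RNAs but carry no long open reading frame. Some act on chromatin near their own gene, as Airn does at the imprinted Igf2r locus, some are structural or regulatory RNAs of the nucleus, such as Malat1 and Firre, and others are mainly carriers of small nucleolar RNAs or microRNAs in their introns or exons. Many lncRNA genes are active in few cell types and have promoters with few CpG dinucleotides, whereas carriers of small nucleolar RNAs tend to have the CpG-rich promoters of housekeeping genes.

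RefSeq promoter sequences (250 bases before to 50 bases after the RefSeq start site, build GRCm38.p6) were matched by symbol for 57 of the 987 genes. The table's own coordinates are in build mm39 and are given separately below, and its start sites need not be those of RefSeq. The 6 sequences printed here belong to regions on which the results turn: A830019P07Rik and Mirt1 were more accessible in the active libraries, Airn, Malat1 and Dnm3os were less accessible, and Snhg16 did not pass the test. Each is written from 5′ to 3′ on the strand of the gene, and capitals mark each CpG dinucleotide.
A830019P07Rik, chr19:35924529-35924828, minus strand: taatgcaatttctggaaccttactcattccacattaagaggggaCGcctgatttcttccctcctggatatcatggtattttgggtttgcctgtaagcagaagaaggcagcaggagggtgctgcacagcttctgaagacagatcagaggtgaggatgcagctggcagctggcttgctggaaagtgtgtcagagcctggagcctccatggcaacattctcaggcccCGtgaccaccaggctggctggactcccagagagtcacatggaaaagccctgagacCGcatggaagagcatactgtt
Mirt1, chr19:53464747-53465046, minus strand: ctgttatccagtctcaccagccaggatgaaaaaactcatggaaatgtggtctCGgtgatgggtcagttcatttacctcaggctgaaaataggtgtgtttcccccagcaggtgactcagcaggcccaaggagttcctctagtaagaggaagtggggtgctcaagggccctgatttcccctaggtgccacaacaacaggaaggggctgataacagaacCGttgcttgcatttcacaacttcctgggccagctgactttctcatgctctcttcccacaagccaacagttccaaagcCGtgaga
Airn, chr17:12741061-12741360, plus strand: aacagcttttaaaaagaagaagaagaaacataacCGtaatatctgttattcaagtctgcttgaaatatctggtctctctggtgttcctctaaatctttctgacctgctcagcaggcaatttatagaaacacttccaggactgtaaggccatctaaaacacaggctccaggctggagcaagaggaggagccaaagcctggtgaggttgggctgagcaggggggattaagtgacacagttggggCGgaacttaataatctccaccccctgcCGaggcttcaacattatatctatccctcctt
Malat1, chr19:5802623-5802922, minus strand: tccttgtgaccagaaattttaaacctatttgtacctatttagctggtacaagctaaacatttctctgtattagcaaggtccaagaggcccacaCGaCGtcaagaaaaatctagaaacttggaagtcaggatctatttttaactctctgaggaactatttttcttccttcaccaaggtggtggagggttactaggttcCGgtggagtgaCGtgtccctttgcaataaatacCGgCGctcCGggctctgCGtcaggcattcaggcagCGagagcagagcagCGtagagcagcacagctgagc
Dnm3os, chr1:162217373-162217672, plus strand: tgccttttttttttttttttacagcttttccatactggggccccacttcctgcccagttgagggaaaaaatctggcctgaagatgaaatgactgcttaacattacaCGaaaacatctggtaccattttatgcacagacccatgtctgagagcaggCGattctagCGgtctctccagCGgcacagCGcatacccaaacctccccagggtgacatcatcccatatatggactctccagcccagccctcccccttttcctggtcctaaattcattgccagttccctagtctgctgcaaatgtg
Snhg16, chr11:116671410-116671709, plus strand: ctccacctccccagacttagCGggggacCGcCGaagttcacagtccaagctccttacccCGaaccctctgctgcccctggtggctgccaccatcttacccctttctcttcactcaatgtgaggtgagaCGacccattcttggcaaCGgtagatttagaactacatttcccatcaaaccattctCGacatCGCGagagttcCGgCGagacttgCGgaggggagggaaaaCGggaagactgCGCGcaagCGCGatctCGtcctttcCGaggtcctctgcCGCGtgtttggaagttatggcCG
The promoters of A830019P07Rik, Mirt1 and Airn each held 3 CpG dinucleotides, that of Dnm3os held 5, that of Malat1 held 10 and that of Snhg16 held 22. The median over the 27025 RefSeq promoters was 7. The ratio of observed to expected CpG was 0.145 for A830019P07Rik, 0.152 for Mirt1, 0.192 for Airn and 0.298 for Dnm3os. It was 0.604 for Malat1 and 0.905 for Snhg16, against a median of 0.389 over all RefSeq promoters. A relation of CpG content to change was not tested. The Mirt1 promoter contained TGANTCA, the core motif of AP-1 factors, which reads the same on both strands and occurred in 7.92% of all RefSeq promoters. A comparison of CpG content over all lncRNA promoter regions is void, because only 57 of 987 genes had a sequence.

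Promoter regions of lncRNA genes were narrower and held fewer reads than those of protein-coding genes. Under the same distance and level rule there were 9521 protein-coding promoter regions. The median width was 561.5 bp for lncRNA and 886 bp for protein-coding promoter regions, and the median mean level was 88.6 against 250.3 normalised reads. The middle of the lncRNA range, from the lower to the upper quartile, ran from 36.0 to 217.5 normalised reads, and the highest region reached 1411. Of the lncRNA promoter regions, 14.3% were among the top 10% of all tested regions by level, against 35.8% of the protein-coding ones. They also lay farther from the annotated start site, with a median distance of 232.5 bp against 139 bp, and 25% against 38.7% lay within 100 bp of it.

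The lower level was present in each library. The median lncRNA promoter region held 87, 87 and 90.5 normalised reads in the active and 88, 91.5 and 93 in the inactive libraries. The protein-coding medians were 240, 247 and 238 in the active and 254, 256 and 262 in the inactive libraries. The active and inactive medians thus did not overlap for protein-coding promoters and did for lncRNA promoters. As a percent of the protein-coding median, the lncRNA median was 36.5% ± 1.42 (SD, n = 3) in the active and 35.3% ± 0.575 (SD, n = 3) in the inactive libraries. Per kb of region width the gap was smaller. The percent was then 63.2% ± 0.965 (SD, n = 3) in the active and 59.3% ± 1.56 (SD, n = 3) in the inactive libraries, and the groups did not overlap. All lncRNA promoter regions together took 2.45% ± 0.00797 (SD, n = 3) of the normalised reads in the active and 2.52% ± 0.0129 (SD, n = 3) in the inactive libraries. Unlike the lncRNA medians, these shares did not overlap between the groups.

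Between the groups, 301 lncRNA promoter regions (29.4%) were called higher and 348 (34.0%) lower in the active libraries, and 375 did not pass the test (limma, adjusted p under 0.05 over all 51253 tested regions). Over all tested regions, 30.9% were called higher and 29.2% lower, so most of the table moved and the lncRNA shares lay close to it. Of all protein-coding promoter regions, 20.9% were called higher and 37.5% lower. When these were weighted to the levels of the lncRNA promoter regions, in bins of 0.5 log2 units, the shares became 22.9% higher and 33.3% lower. At matched level the share called higher was thus 29.4% for lncRNA against 22.9% for protein-coding promoters, and the share called lower 34.0% against 33.3%. The lncRNA share called higher was larger in 11 of the 13 bins, and the share called lower in 7 of 13. Which of the 2 shares differed more between the kinds depended on the setting. Within 250 bp of the start site, 25.6% of lncRNA against 23.3% of protein-coding promoters at matched level were called higher and 37.2% against 33.4% lower. After each library was centred on 10 Mb windows of the chromosome, as described below, the shares were 22.9% against 18.7% higher and 28.0% against 22.3% lower. No test was made of this difference, because regions are not replicates and share the same libraries. Depth also differed with the groups, with an estimated 7330000 to 8960000 reads per inactive library but 3710000 to 6840000 per active one. Thinned to equal depth, 259 lncRNA promoter regions (25.3%) were called higher and 297 (29.0%) lower, against 26.9% and 23.3% of all tested regions. The protein-coding shares at matched level were then 19.2% and 26.3%.

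**Figure D1:**
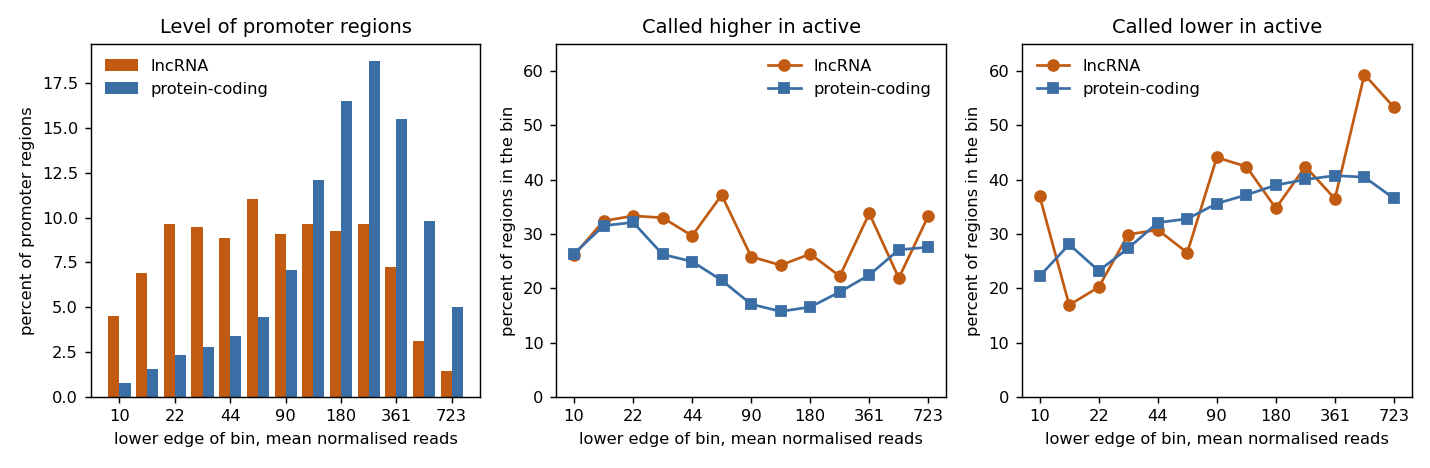
Level and calls of 1024 lncRNA (orange) and 9521 protein-coding (blue) promoter regions in 13 bins of mean level; the horizontal axes give the lower edge of each bin in normalised reads, and the lowest and highest bins also take all regions beyond them. The left panel gives the percent of each kind in each bin, and the other panels the percent called higher or lower in the active libraries; lncRNA promoters sit at lower levels, and their percent called higher is above the protein-coding one in 11 bins.

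Changes of at least 2-fold among these calls were more often gains than losses. There were 103 lncRNA promoter regions (10.1%) higher and 74 (7.23%) lower by at least 2-fold on the log2(value + 1) scale, against 13.4% and 6.86% of all tested regions. The protein-coding shares were 2.73% and 2.12%, or 8.33% and 6.23% when weighted to the lncRNA levels. At 4-fold, 39 lncRNA regions were higher and 9 lower (all tested regions, 4.52% and 1.22%), and at 8-fold 16 were higher and 1 was lower (1.57% and 0.338%). The median log2 fold change of all lncRNA promoter regions was -0.07, beside -0.02 over all tested regions and -0.11 over protein-coding promoters. The median size of the change, without its sign, was 0.39 for lncRNA and 0.23 for protein-coding promoters, or 0.32 for the latter at matched level. In 309 lncRNA regions all active libraries lay above all inactive ones, and in 361 below them (all tested regions, 31.8% and 30.5%).

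The size of the change went with the level, and so did its direction across tertiles of level. In the lowest tertile of level (10 to 49.8 normalised reads), 117 of 341 regions changed at least 2-fold, against 56 of 341 in the middle and 4 of 342 in the highest tertile (158 to 1411). The share called lower was 24.6%, 36.7% and 40.6% from the lowest to the highest tertile, and the share called higher 31.7%, 30.2% and 26.3%. From the lowest to the highest of the 13 bins of level, the share past 2-fold went from 54.3% to 0% in lncRNA promoters. In protein-coding promoters it went from 45.8% to 0%, so the relation of size to level was not limited to lncRNA promoters. These end bins held only 46 and 15 lncRNA regions, and 72 and 479 protein-coding ones. Between the end bins, the share called lower went from 37.0% to 53.3% in lncRNA and from 22.2% to 36.5% in protein-coding promoters. The lncRNA path was uneven, with 16.9% lower at 15 to 21.6 normalised reads, 44.1% at 89.5 to 127 and 36.5% at 361 to 511. The share called higher did not fall between the end bins, at 26.1% and 33.3% in lncRNA and 26.4% and 27.6% in protein-coding promoters. Distance from the start site was also related to the call. Among the 540 regions within 250 bp, 25.6% were called higher and 37.2% lower, and among the 220 regions at 250 to 500 bp 37.7% and 30.9%. At 500 to 1000 bp the shares were 30.3% and 29.9% of 264 regions. Regions within 250 bp also had the highest median level (109 normalised reads, against 63.5 at 500 to 1000 bp), so level and distance moved together here. In the same 3 ranges of distance, 21.0%, 19.3% and 23.1% of protein-coding promoters were called higher and 37.1%, 39.9% and 36.8% lower.

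**Figure D2:**
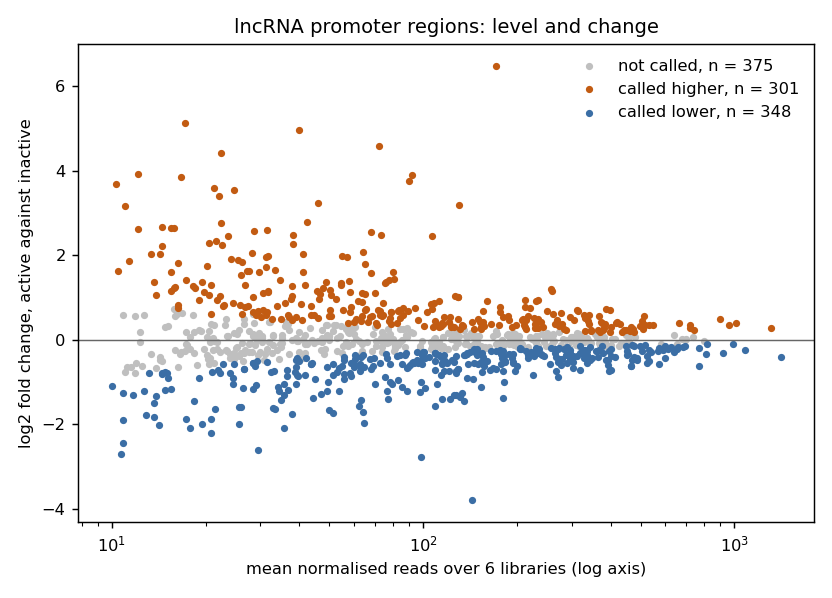
Each point is 1 of the 1024 lncRNA promoter regions, with its mean normalised reads over 6 libraries (log axis) against its log2 fold change, active against inactive. Regions called higher (301) are orange, called lower (348) blue and not called (375) grey; the changes past 2-fold sit mostly at low levels, and the largest gain reaches 6.48 while the largest loss reaches -3.81.

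The largest gains were promoters that held few or no reads in the inactive libraries. Of the 10 largest, all but those at chr6:136495622-136496393 and chr13:64833035-64833628 had an inactive mean under 10. The rest thus met the level rule only through the active libraries, and a ranking by fold change favours such regions. Their low inactive values are therefore no separate result. The gene ENSMUSG00000120818, whose promoter region lies at chr14:20132739-20133419 (mm39) within a protein-coding gene on the same strand, held 343, 357 and 314 normalised reads in the active and 1, 2 and 8 in the inactive libraries. This was a log2 fold change of 6.48 ± 0.459 (SE; limma adjusted p = 1.07e-06). Of the 6 other tested regions within 50 kb, 5 were called higher, and the promoter of Saysd1, 56 kb away, rose by 2.31 on the log2 scale, from 9.33 ± 2.52 to 49.3 ± 6.11 (SD, n = 3). The promoter of ENSMUSG00000111467 at chr9:33207346-33207631 held 38, 32 and 33 normalised reads in the active libraries and 0 in each inactive one. Taking 3 reads in each inactive library as the limit that a count of 0 allows, it was at least 14.4-fold higher, where the limit covers counting error only. No other tested region lay within 50 kb of it.

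Among genes with a symbol, A830019P07Rik had the highest log2 fold change on the log2(value + 1) scale. Its region at chr19:35901565-35902130 (mm39) held 133, 145 and 141 normalised reads in the active and 4, 7 and 4 in the inactive libraries, a 27.9-fold difference of the means (log2 fold change 4.59 ± 0.228 SE, limma adjusted p = 2.52e-20). The groups were far apart, and its RefSeq promoter is among the CpG-poor ones printed above. Serpina3h, which the table lists as lncRNA although its name is that of a serpin family gene, held 44, 41 and 46 against 2, 2 and 0 normalised reads at chr12:104213850-104214119. All 4 other tested regions within 50 kb of it were called higher, with a median log2 fold change of 4.48, so the gain extended beyond the promoter. Sox5it held 40, 42 and 28 against 8, 8 and 4 normalised reads (log2 fold change 2.33, limma adjusted p = 2.34e-08), again with no overlap of the groups. Its inactive mean was 6.67, so Sox5it met the level rule only through the active libraries.

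The other 6 of the 10 largest gains belonged to genes without a symbol. At chr6:136495622-136496393 the values were 166, 178 and 173 in the active and 7, 9 and 19 in the inactive libraries. Here the surroundings went the other way: 6 of the 8 other tested regions within 50 kb were called lower, with a median log2 fold change of -0.75. At chr13:64833035-64833628 they were 161, 173 and 171 against 17, 9 and 10, with no other tested region within 50 kb. At chr1:61478810-61479258 they were 35, 32 and 29 against 1, 1 and 2, and all 4 other tested regions within 50 kb were called higher. The promoter of Pard3b, a cell polarity gene 199 kb away, rose there as well, from 10.7 ± 1.53 to 62.0 ± 4.36 (SD, n = 3). The remaining 3 lay on chromosomes 6, 1 and 15 and held 68 to 84, 18 to 32 and 16 to 27 normalised reads in the active libraries and at most 3 in any inactive one. With inactive values this low, the fitted fold change depends on the 1 that was added to each value.

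Further genes with a symbol were called higher. Mirt1 held 99, 74 and 93 normalised reads in the active and 39, 38 and 47 in the inactive libraries, a 2.15-fold difference (log2 fold change 1.08 ± 0.156 SE, limma adjusted p = 1.50e-07). Its groups did not overlap, and 4 of 7 other tested regions within 50 kb were also called higher. 1700061I17Rik held 92, 94 and 76 against 47, 39 and 34 normalised reads, while 2 of its 3 neighbouring regions were called lower. Gm10701, Gm3985 and Gm31219 rose by 2.67, 1.72 and 1.62 on the log2 scale (limma adjusted p = 5.80e-07, 1.93e-07 and 2.64e-07), from means of 3.67, 14.3 and 13.0 normalised reads. Gm10701 met the level rule only through the active libraries.

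The largest loss was at the promoter of ENSMUSG00000086537, at chr2:174136973-174137672. It held 16, 19 and 20 normalised reads in the active and 269, 251 and 287 in the inactive libraries, 14.7-fold less by the means (log2 fold change -3.81 ± 0.141 SE, limma adjusted p = 1.87e-24). Of the 7 other tested regions within 50 kb, 5 were called lower, with a median log2 fold change of -0.66. The nearest protein-coding promoter, that of Nelfcd at 120 kb, did not pass the test (-0.10, limma adjusted p = 0.372). The next loss, at the promoter of ENSMUSG00000085448 (chr2:113270680-113271482), lay inside a protein-coding gene on the opposite strand. Its values were 21, 30 and 23 in the active and 182, 165 and 171 in the inactive libraries (a log2 change of -2.77 ± 0.151 SE, limma adjusted p = 4.20e-19). The nearest protein-coding promoter, that of the actin-nucleating formin Fmn1 at 113 kb, moved the opposite way, from 4 normalised reads in each inactive library to 79.0 ± 4.36 in the active ones (SD, n = 3).

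The other 8 of the 10 largest losses were lower in level, with inactive means between 18.3 and 58.0 normalised reads. All but the region at chr14:47993855-47994239 had an active mean under 10 and met the level rule only through the inactive libraries. 1 of the 8 carried a symbol: 4933402D24Rik held 7, 0 and 2 normalised reads in the active and 20, 22 and 13 in the inactive libraries. The region at chr1:98517032-98517566 held 10, 7 and 6 against 52, 48 and 54, with no other tested region within 50 kb. The region at chr14:47993855-47994239 held 19, 12 and 9 against 64, 59 and 51. Among genes with a symbol and a higher level, 1810034E14Rik held 63, 62 and 75 against 180, 166 and 185 normalised reads (log2 fold change -1.40 ± 0.117 SE, limma adjusted p = 1.75e-13). It lies inside a protein-coding gene on the opposite strand, and the promoter of Cdc14b, a phosphatase gene 26 kb away, rose by 1.67 on the log2 scale, from 62.0 ± 7.94 to 198 ± 15.0 normalised reads (SD, n = 3).

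Well-known lncRNA genes changed by smaller amounts. Malat1, the source of an abundant nuclear RNA, held 55, 60 and 41 normalised reads in the active and 101, 112 and 102 in the inactive libraries at chr19:5852423-5852772. Every active library lay below every inactive one, and the log2 fold change was -1.02 ± 0.145 (SE; limma adjusted p = 1.12e-07). Of the 16 other tested regions within 50 kb, 15 were also called lower (median log2 fold change -0.64). Airn, the imprinted RNA transcribed against Igf2r, held 92, 97 and 99 against 169, 191 and 183 normalised reads at chr17:12960057-12960635, a log2 fold change of -0.91 ± 0.104 (SE; limma adjusted p = 8.78e-10). The Igf2r promoter, 28 kb away, changed less, at means of 119 and 149 normalised reads (n = 3; log2 fold change -0.32, limma adjusted p = 0.00907). Firre, an X-linked gene of a nuclear RNA, held 147, 152 and 147 against 141, 149 and 128 normalised reads, and the groups overlapped (log2 fold change 0.10, limma adjusted p = 0.422). The regions around Firre were lower: 10 of 11 within 50 kb were called so, with a median of -0.59.

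Of 6 promoter regions of small-RNA host genes, 1 rose, 3 fell and 2 did not pass the test, where 30.9% of all tested regions were called higher and 29.2% lower. Centred on 10 Mb windows, Dancr, which rose, and Mir100hg, which fell, lost the call and changed sign (-0.13 and 0.05). Dnm3os, which carries microRNAs and lies antisense to Dnm3, held 275, 325 and 312 normalised reads in the active and 482, 507 and 508 in the inactive libraries (a log2 change of -0.72 ± 0.0682 SE, limma adjusted p = 6.88e-12). Its groups did not overlap, and its surroundings were mixed, with 3 of 8 regions within 50 kb called higher and 2 lower. Mir670hg held 42, 37 and 46 against 68, 77 and 83 normalised reads, and Mir100hg 38, 27 and 40 against 54, 49 and 53. Dancr, a snoRNA host known to hold back differentiation, was the member that rose, with 434, 514 and 505 against 391, 361 and 372 normalised reads (log2 fold change 0.37 ± 0.0670 SE, limma adjusted p = 1.04e-05). The snoRNA hosts Snhg5 and Snhg16 held 470, 435 and 384 against 500, 428 and 495, and 195, 187 and 190 against 196, 190 and 206 normalised reads. Both pairs of groups overlapped, with limma adjusted p = 0.0729 and 0.643. After centring, Snhg5 was called lower (-0.20, limma adjusted p = 0.0281) and Snhg16 higher (0.24, limma adjusted p = 0.0353).

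Both growth-control genes with a promoter region were called higher, as were 30.9% of all tested regions, but neither call held after centring on 10 Mb windows, where both values turned negative (Lncpint -0.12, limma adjusted p = 0.218; Dancr -0.13, limma adjusted p = 0.154). Lncpint, a target of p53, held 393, 408 and 385 normalised reads in the active and 257, 269 and 263 in the inactive libraries (a log2 change of 0.59 ± 0.0697 SE, limma adjusted p = 1.93e-09), and Dancr is the other. Of the 6 other tested regions within 50 kb of Lncpint, 5 were called higher. None of the listed developmental and Hox antisense genes had a promoter region under the rule. Of 11 genes named as opposite-strand transcripts, 2 rose, 6 fell and 3 did not pass the test, against 30.9% higher and 29.2% lower over all tested regions. The 2 that rose were Ppifos, with 58, 74 and 56 against 31, 44 and 39 normalised reads, and Alkbh3os1, with 326, 293 and 301 against 277, 254 and 245; the latter lost its call in limma without the trend (adjusted p = 0.0708). Ppif itself, 6.91 kb from Ppifos, was not called (log2 fold change 0.13, limma adjusted p = 0.147), and the promoter of Alkbh3 was lower (-0.32, limma adjusted p = 0.00105). Those that fell were Lrp8os1, Dnm3os, Fbxl12os, Frmd8os, Runx2os1 and Cdk19os, with log2 fold changes from -0.85 to -0.27. Fbxl12os (0.08), Frmd8os (-0.19) and Cdk19os (-0.14) lost the call after centring on 10 Mb windows. Cdk19os, at 533, 539 and 480 against 621, 613 and 630 normalised reads, changed less than the promoter of Cdk19 itself 9.85 kb away, which fell by 1.64 on the log2 scale from 101 ± 4.04 to 31.7 ± 2.08 (SD, n = 3). Bach2os, Sox6os and Rab10os did not pass the test. After centring, Bach2os (-0.74, limma adjusted p = 0.00878) and Rab10os (-0.47, limma adjusted p = 0.00014) were called lower, and Sox6os was not called. Of the 11 genes, 2 were then called higher and 5 lower, against 27% and 23.4% of all tested regions.

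**Figure D3:**
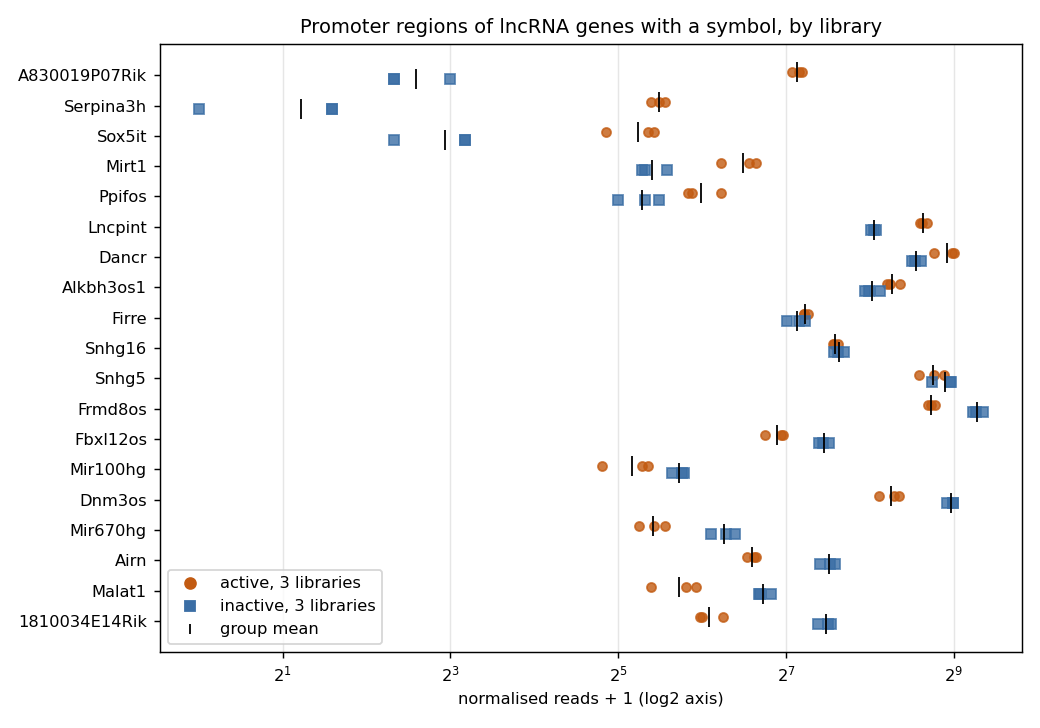
Normalised reads plus 1 (log2 axis) of 19 lncRNA promoter regions with a gene symbol, with 1 orange circle for each active and 1 blue square for each inactive library and a black bar for each group mean. A830019P07Rik, Serpina3h and Sox5it show the widest gaps, Snhg16, Snhg5 and Firre have overlapping groups, and the 8 regions below them in the plot are lower in every active library.

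In all, 997 regions belonged to genes with placeholder names or with an identifier alone. Of these, 294 (29.5%) were called higher and 334 (33.5%) lower, against 30.9% and 29.2% of all tested regions. At least 2-fold changes were found in 173 of them (17.4%), where 13.4% of all tested regions were higher and 6.86% lower by that much. Of the 100 regions with a symbol and the 924 without, 28% and 29.5% were called higher, 39% and 33.4% lower, and 15% and 17.5% changed at least 2-fold; the difference was not tested. The 6 lncRNA promoter regions with the highest level changed little. The highest, at chr17:26726960-26728848, held 1224, 1265 and 1147 normalised reads in the active and 1515, 1659 and 1656 in the inactive libraries (a log2 change of -0.41 ± 0.0427 SE, limma adjusted p = 7.44e-11). The next, at chr13:48699091-48700337, went the other way, with 1370, 1511 and 1417 against 1197, 1179 and 1173. Of the 6, 3 were called higher and 3 lower, each in the direction of its chromosome's median. The call of the region at chr17:13902634-13904391 (log2 fold change -0.11, limma adjusted p = 0.0274) was lost without active replicate 1 or 2 or inactive replicate 1 or 2, with limma adjusted p from 0.0529 to 0.126. The 3 smallest changes among regions at or above the median level were on chromosomes 13, 1 and 14. At chr13:34119448-34120242 the values were 202, 212 and 172 against 195, 188 and 200 normalised reads, at chr1:154958759-154959662 641, 717 and 680 against 693, 627 and 715, and at chr14:77017715-77018792 124, 131 and 125 against 131, 120 and 130. Centred on 10 Mb windows, those on chromosomes 13 and 14 were called lower (-0.33 and -0.31, limma adjusted p = 0.00241 and 0.0204). The region on chromosome 1 was not called (-0.12, limma adjusted p = 0.177).

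The direction of change followed the chromosome for both kinds of promoter. On chromosome 12, 32 of 50 lncRNA promoter regions were called higher and 2 lower, with a median log2 fold change of 0.38. Chromosomes 13, 14 and 15 had medians of 0.34, 0.25 and 0.25. The lowest medians were on chromosomes 9 (-0.48, with 27 of 47 regions lower), 18 (-0.44) and 19 (-0.30), and on the X chromosome 0 of 15 regions were called higher and 6 lower. All tested regions moved the same way there, with medians of 0.50 on chromosome 12, -0.29 on 9, -0.38 on 18 and -0.24 on 19. On chromosomes 13, 14, 15 and X they were 0.33, 0.16, 0.27 and -0.08. Across the 20 chromosomes, the lncRNA and protein-coding medians had the same sign in all 20, with Pearson's r = 0.975 and Spearman's rho = 0.940. These values are a description over 20 points that share the same 6 libraries.

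**Figure D4:**
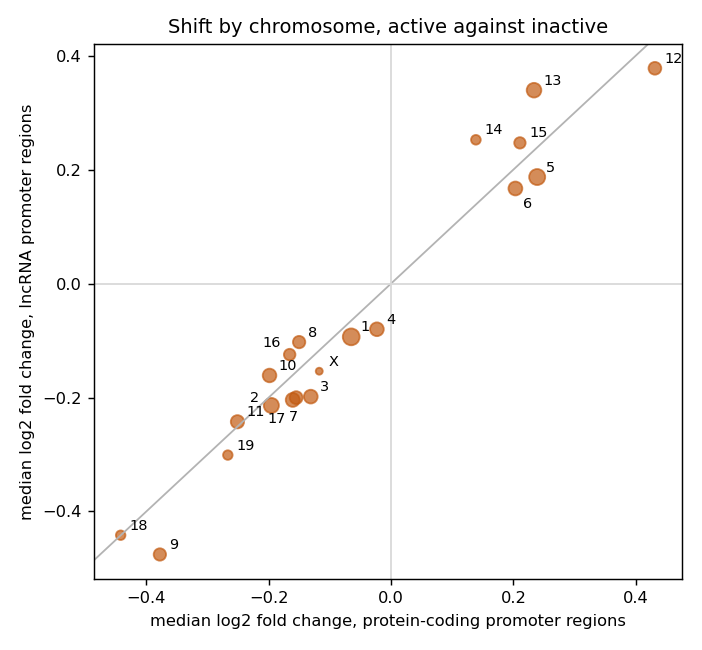
Median log2 fold change, active against inactive, of protein-coding (horizontal axis) and lncRNA (vertical axis) promoter regions for each of 20 chromosomes, with points sized by the number of lncRNA regions (15 to 87). The grey diagonal marks equal medians; the points lie along it, from chromosome 18 (-0.44 on both axes) to chromosome 12 (0.43 and 0.38).

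When each library was centred on the median of all tested regions in the same 10 Mb window, 234 lncRNA promoter regions (22.9%) were called higher and 287 (28.0%) lower, against 27% and 23.4% of all tested regions. The protein-coding shares at matched level were then 18.7% and 22.3%. Of the regions called before centring, 200 were higher and 217 lower in both fits, 96 and 129 lost the call, and 5 and 2 changed direction. Of the 177 changes of at least 2-fold, 173 were still called in the same direction. Malat1 was still lower after centring (-0.65, limma adjusted p = 0.0162), as were Airn (-1.28, limma adjusted p = 1.70e-09) and Dnm3os (-0.74, limma adjusted p = 1.08e-07), and Mirt1 was still higher (1.10, limma adjusted p = 1.99e-06). Firre became higher by this measure (0.58, limma adjusted p = 7.93e-05), as did Snhg16 (0.24, limma adjusted p = 0.0353). Of the 6 regions with the highest level, 5 lost the call. The region at chr17:13902634-13904391 kept it, with a larger change (-0.49, limma adjusted p = 2.75e-07). Of the 9 other tested regions within 50 kb of it, 5 were called higher and 2 lower before centring (median log2 fold change 0.31).

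Reno1 and Dubr lay in this class too. Reno1, a neurogenesis-related gene on chromosome 11, which also holds Actg1, held 280, 307 and 275 normalised reads in the active and 369, 417 and 372 in the inactive libraries (a log2 change of -0.42, limma adjusted p = 3.02e-06). Centred on its window the value was -0.03 (limma adjusted p = 0.814), and all 4 other tested regions within 50 kb were called lower. Dubr, known from muscle cell differentiation, held 28, 27 and 27 against 42, 44 and 52 normalised reads and also lost its call on centring (-0.41, limma adjusted p = 0.0663).

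The lncRNA promoter regions lay apart from the regions annotated as protein-coding promoters, the nearest pair being 4720 bp apart, with a median distance of 63376 bp. Each region is annotated to a single gene, so these distances cannot show whether a lncRNA promoter region is shared with a protein-coding gene. Of all tested regions, 30.9% were called higher and 29.2% lower, and of all protein-coding promoter regions 20.9% and 37.5%. Both kinds of promoter also moved with their chromosome. Whether the pairs below went together more often than other regions of the same chromosome was not tested. Among the 88 pairs within 10 kb, both promoters were called higher in 7 and both lower in 22. Only the lncRNA promoter was called in 14, only the protein-coding one in 21, neither in 23, and 1 pair moved in opposite directions. The correlation of the log2 fold changes over these 88 pairs was r = 0.373, as a description. In 52 of the 88 pairs the lncRNA promoter changed by more, and 8 lncRNA against 2 protein-coding promoters changed at least 2-fold. The pairs were not matched on level, and changes past 2-fold were more frequent at low levels in both kinds. Over all regions the median level was 88.6 normalised reads for lncRNA and 250.3 for protein-coding promoters. Among the 643 pairs within 100 kb, 67 were both higher, 128 both lower and 51 opposite, and r was 0.291. In these, 86 lncRNA promoters changed at least 2-fold, and in 35 of them the protein-coding neighbour was not called. Of all tested regions, 13.4% were higher and 6.86% lower by at least 2-fold, and 41.5% of all protein-coding promoter regions were not called.

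**Figure D5:**
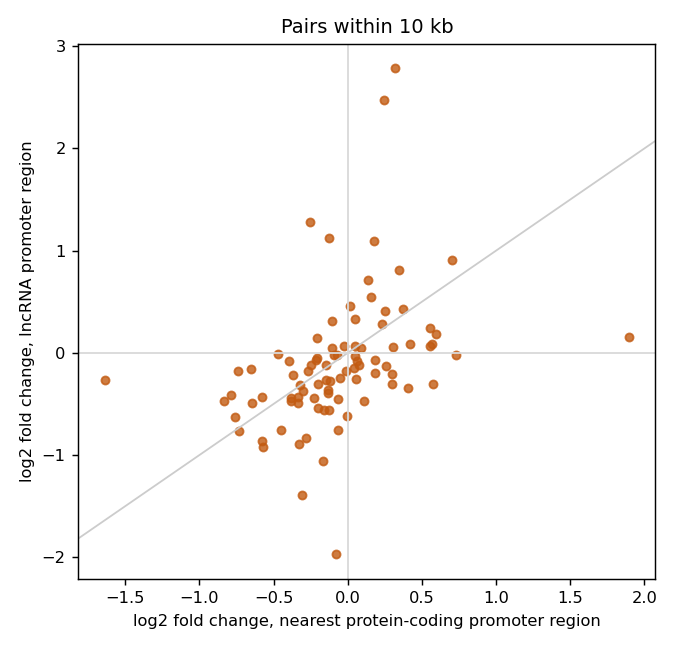
Log2 fold change, active against inactive, of the nearest protein-coding promoter region (horizontal axis) and of the lncRNA promoter region (vertical axis) for the 88 pairs within 10 kb; the grey diagonal marks equal change. In 7 pairs both promoters were called higher and in 22 both lower, where 30.9% of all tested regions were called higher and 29.2% lower. In 52 pairs, which were not matched on level, the lncRNA promoter changed by more than its neighbour.

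The regions were also described by their place relative to the 10942 protein-coding genes to which a region was annotated. The start site of the lncRNA gene decided the place. Genes without an annotated region were not considered, so some regions counted as outside lie inside a gene, as Dnm3os does. The contrast below is thus not strictly outside against inside. Outside these listed protein-coding genes lay 835 regions, of which 18.3% changed at least 2-fold. Of all tested regions, 13.4% were higher and 6.86% lower by that much. Of the 166 regions inside a listed protein-coding gene on the opposite strand, 10.2% changed at least 2-fold, with a median level of 108 normalised reads against 86.3 outside. Only 23 regions lay inside a protein-coding gene on the same strand, where ATAC-seq cannot assign the opening to either gene, and 7 of these changed at least 2-fold. Of the 37 genes with a pair of promoter regions, 3 had both higher, 9 both lower and 11 neither called. In 9 genes only 1 of the pair was called, as lower, in 4 only 1 as higher, and in 1 gene they moved in opposite directions. The lncRNA regions farther than 1000 bp from the start site (1619) were called higher in 32.2% and lower in 29.6% at matched level, and regions with no annotated gene in 33.3% and 29.3%.

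Promoter regions of fibroblast genes were present for 10 of 12 markers, with mean levels from 32.0 to 827 normalised reads. No promoter region was listed for 5 immune markers, and 1 each for 6 epithelial (Krt8), 4 endothelial (Kdr) and 3 skeletal muscle (Ckm) markers. The fibroblast marker promoters also differed between the groups: 7 of 10 were called lower in the active libraries, with log2 fold changes from -1.61 (Twist2) to -0.24 (Fn1), Col1a2 (0.57) and Twist1 (0.19) were called higher, and Col3a1 was not called. Of all protein-coding promoter regions, 20.9% were called higher and 37.5% lower, and of all tested regions 30.9% and 29.2%. Krt8 (147 against 85.0 normalised reads on average) and Kdr (79.0 against 6.67) were higher in the active libraries, and Ckm was not called. The part of these marker differences in the results was not tested. Just inside the level limit, lncRNA promoter regions had means from 10 normalised reads upward, and just outside 9.83; the distance limit fell between 1000 and 1001 bp.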

How the data were processed

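ATAC-seq libraries were made from 50000 cells each, per the labels' protocols. Per the submitters' processing notes, the build was mm39 and the tools included DESeq2 1.36.0, featureCounts, STAR 2.7.11a, Trimmomatic 0.39 and Picard 3.1.1. Not given in the sources used here: the peak caller, how peaks were merged and whether reads were shifted for Tn5. The deposited values are a score: whole numbers with near-equal totals (6433944 to 6548535), read here as reads per region scaled by the authors and then rounded. In active replicates 1 and 2, 10 and 26 whole numbers below 60 never occur, and in the other libraries none is absent. Depth was estimated from how unevenly the whole numbers are filled, skipped ones included, and is approximate. No count model was therefore applied, and the values were used as log2(value + 1). Regions annotated by the authors to a gene were taken with their biotype and distance to the start site.

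Limma 3.58.1 (R 4.3.3, trend and robust settings, no covariate) was fitted over all 51253 regions with a mean of at least 10, with Benjamini-Hochberg adjustment at 0.05. A fold change is on the log2(value + 1) scale and understates that of low regions. The fit was run on simulated data as a check of the code. Few regions were changed there and no chromosome was shifted, so the simulation cannot show how reliable the present calls are. Tables were made with Python 3.11.15 and pandas 2.3.3.

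The members, lists and tests were chosen with earlier results of these data known. Regions named were the 10 largest gains and 10 largest losses whose groups did not overlap (1 per gene), the 6 of highest level, the 3 of smallest change at or above the median level, those at the limits, and those of listed genes with a symbol; Mirt1, Sox5it, Dubr and Reno1, and the symbols described among the placeholder names, were chosen after their values were seen. Alternatives were leaving out each library, a replicate block, other pseudocounts, filters, normalizations and distances, equal depth, window centring and other matching. Same-numbered libraries deviated together in no pair (correlations 0.001, -0.006 and -0.016), so the numbers do not pair the libraries.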

Additional observations from a re-analysis of the deposited data

How the results depend on the processing

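The counts of 301 higher and 348 lower stayed within 1.5 times under every alternative run except a distance of at most 250 bp, where fewer regions (540) gave 138 higher and 201 lower. Leaving out each library in turn gave 278 to 290 higher (27.1% to 28.3%) and 295 to 347 lower (28.8% to 33.9%). Of all tested regions, 28.5% to 30.4% were then called higher and 24.9% to 28.7% lower. The replicate block gave 302 (29.5%) and 340 (33.2%), against 30.7% and 29.0% of all tested regions. The block changed 1 named call, that of the region at chr17:13902634-13904391 (limma adjusted p = 0.0505 against 0.0274). That region also lost its call without active replicate 1 or 2, without inactive replicate 1 or 2, without the trend and at equal depth. It was the only 1 of 50 called named regions to lose its call when a library was left out, and 34 of the 50 kept call and direction in every setting. Among uncalled regions, Snhg5 was called lower without active replicate 1 or inactive replicate 2 (-0.21 and -0.22), and Rab10os higher without active replicate 2 or 3 (0.21 and 0.21). Rab10os was also called higher after quantile normalization (0.20, limma adjusted p = 0.0388) but lower after window centring (-0.47, limma adjusted p = 0.00014).

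The protein-coding percent called higher at matched level was 22.9; it was 20.3 to 22.3 with a library left out, 20.9 at a mean of at least 30, 21.1 after quantile normalization, 18.7 after window centring, 19 without the trend, 19.2 at equal depth and 23.8 with 1 region per gene. The percent called lower, 33.3, was 27.1 to 33.4, 35.7, 36.1, 22.3, 24.6 and 26.3 under the first 6 of these. The lncRNA level, 35.9% of the protein-coding one, was 50.1% at a mean of at least 30, 38.3% after centring, 42.0% and 40.3% within 250 and 500 bp, and 61.3% per kb. Causes of these shifts were not tested, except that a stricter filter or distance leaves fewer regions.

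Direction reversed only on window centring, among the named regions: Mir100hg (0.052), Fbxl12os (0.077), Snhg16 (0.24), the regions at chr13:34119448-34120242 (-0.33) and chr13:48699091-48700337 (-0.0049), Rab10os (-0.47), Dancr (-0.13) and Lncpint (-0.12). Of these, only Snhg16, the region at chr13:34119448-34120242 and Rab10os were called in the new direction. Regions near 10 normalised reads carry the most counting error, and more so in the shallower active libraries.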
